A study of Mus musculus with 8 samples.

Results

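The fibrocystic liver disease genes are 10 mouse genes, Pkhd1, Pkd1, Pkd2, Cys1, Dcdc2a, Anks6, Bicc1, Glis3, Prkcsh and Sec63, whose human or mouse mutations cause liver cysts, congenital hepatic fibrosis or related bile duct disease. They were read here from bulk RNA-seq of whole mouse liver. The set was chosen by its known disease genes together with values of the comparison described below, in that Pkhd1, Bicc1, Glis3 and Dcdc2a were higher in libraries labelled HuR KO and Pkd1 was not. The differences between genotypes in these 10 genes are therefore given as a description, and where a gene is named as called, the call restates the values that chose it and tests nothing further. All 10 were found by symbol among the 45706 gene rows of the count table, and all 10 passed the low-count filter that left 14645 genes.

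Livers of 8 C57BL/6 mice were sequenced, 4 with the genotype HuR KO and 4 with the genotype HuR WT, with 1 library per mouse. HuR, the product of Elavl1, binds messenger RNA and mostly stabilises it. The sources used here give neither the allele, the cells in which HuR was removed, any Cre line, nor the age of the mice. The titles carry animal numbers, from 98 to 100 for KO replicates 3 and 4 and WT replicate 3, and of 4 digits for the other 5 animals. What this difference in numbering stands for is not stated.

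Total gene counts ranged from 25377376 to 27626128 in the KO libraries and from 18649618 to 31249286 in the WT libraries. Elavl1 was at 49.4, 56.0, 49.1 and 45.6 CPM, counts scaled to library size with TMM factors, in KO replicates 1 to 4, against 32.7, 45.7, 42.9 and 46.6 CPM in WT replicates 1 to 4. The groups overlapped, and the KO mean was not below the WT mean (log2 fold change 0.25, SE 0.11, edgeR adjusted p = 0.258). A gene count can include reads outside a deleted exon, so it cannot check the labels, and every direction here is between libraries labelled KO and libraries labelled WT. WT replicate 3 stood apart on the first principal component, at −2.33, where the KO libraries lay between 14.6 and 34.7 and the other WT libraries between −37.1 and −27.2. Hepatocyte markers were abundant in both groups, with 12 genes summing to 118235 to 140865 CPM in KO livers and 130191 to 146112 CPM in WT livers. The 6 kidney markers, looked at because these disease genes are also known from kidney, summed to at most 0.544 CPM in any KO library and 0.444 CPM in any WT library.

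In liver, fibrocystic disease begins in the bile ducts, whose lining cells, the cholangiocytes, carry a primary cilium that senses bile flow. Fibrocystin, the product of Pkhd1, and polycystin-1 and polycystin-2, the products of Pkd1 and Pkd2, are membrane proteins of that cilium. Loss of fibrocystin leaves embryonic duct plates unremodelled and surrounded by scar tissue, while loss of the polycystins, or of Prkcsh and Sec63, which help to make them in the endoplasmic reticulum, produces cysts.

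The sequences upstream of the genes were searched for the cores of factors that act in bile duct development or through the cilium. RefSeq promoter windows of 300 bases on GRCm38, from 250 before to 50 after the start of the gene, were at hand for 8 of the 10 genes. GGAATG is the core recognised by the TEAD factors, which act with YAP in bile duct formation, and ACCACCC is the core of the site of the GLI factors, which the cilium controls. Both were searched on both strands and do not overlap each other, and matches are in capitals. GGAATG was found in 14.6% of 27025 windows and, among the 8, in that of Pkd2, at 43 bases before the start. ACCACCC was found in 4.54% of windows and, among the 8, in that of Cys1, at 186 bases before the start. Pkd2 and Cys1 are shown because they hold a match, and Glis3, which was called higher in KO, and Pkd1, which was not called, are shown beside them with no match. The windows of Pkd2, Cys1, Glis3 and Pkd1 were 55.3%, 59.0%, 76.3% and 66.7% G and C, with a median of 52.7% over all windows. Neither string was found in the windows of Pkhd1, Dcdc2a, Prkcsh and Sec63.
Pkd2, chr5:104459207-104459506, plus strand: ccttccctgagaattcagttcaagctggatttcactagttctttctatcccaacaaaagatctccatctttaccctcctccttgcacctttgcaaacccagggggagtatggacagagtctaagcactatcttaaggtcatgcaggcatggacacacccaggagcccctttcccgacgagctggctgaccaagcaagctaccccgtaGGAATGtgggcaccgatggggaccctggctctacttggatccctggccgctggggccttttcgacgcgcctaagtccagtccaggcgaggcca
Cys1, chr12:24681746-24682045, minus strand: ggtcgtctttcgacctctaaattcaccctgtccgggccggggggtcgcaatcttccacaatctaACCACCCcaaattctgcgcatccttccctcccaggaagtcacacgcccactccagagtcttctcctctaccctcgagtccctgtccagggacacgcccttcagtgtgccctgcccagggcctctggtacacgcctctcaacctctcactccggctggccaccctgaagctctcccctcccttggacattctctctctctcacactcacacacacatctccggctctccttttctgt
Glis3, chr19:28680028-28680327, minus strand: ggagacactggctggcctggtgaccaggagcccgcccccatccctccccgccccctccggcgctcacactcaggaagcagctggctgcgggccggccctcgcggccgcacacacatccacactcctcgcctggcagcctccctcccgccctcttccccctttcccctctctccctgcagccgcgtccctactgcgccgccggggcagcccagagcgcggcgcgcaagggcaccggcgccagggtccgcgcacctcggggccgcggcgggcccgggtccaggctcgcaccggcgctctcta
Pkd1, chr17:24549700-24549999, plus strand: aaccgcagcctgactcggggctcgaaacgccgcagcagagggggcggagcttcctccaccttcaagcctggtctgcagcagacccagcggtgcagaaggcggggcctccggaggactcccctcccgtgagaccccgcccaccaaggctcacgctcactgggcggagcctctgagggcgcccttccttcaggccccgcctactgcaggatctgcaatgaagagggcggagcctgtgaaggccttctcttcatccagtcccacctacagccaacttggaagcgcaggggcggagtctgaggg

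Pkhd1 was at 22.02, 23.1, 27.5 and 28.4 CPM in KO replicates 1 to 4, against 8.75, 7.93, 11.3 and 8.26 CPM in WT replicates 1 to 4. No KO library overlapped a WT library, and the lowest KO value was 1.95 times the highest WT value. The mean was 25.3 ± 3.18 CPM in KO livers and 9.05 ± 1.51 CPM in WT livers (SD, n = 4 each), a fold of 2.78 with a 95% interval from 2.26 to 3.42. The gene lies at chr1:20057779-20618064 on the minus strand of mm10 and has 69 separate exon blocks in the annotation that was counted. In bulk liver, fewer or more cells of a type and less or more RNA per cell cannot be told apart, which holds for this and every value below.

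The genes of the polycystins lay closer together between the groups. Pkd1, which encodes the large receptor-like polycystin-1, was at 60.03, 46.7, 51.1 and 53.9 CPM in KO replicates 1 to 4, against 52.3, 59.8, 48.6 and 48.4 CPM in WT replicates 1 to 4. The groups overlapped over most of their range, with a fold of 1.01 and a 95% interval from 0.869 to 1.18, which includes modest changes in either direction. The gene lies at chr17:24549950-24596514 on the plus strand, where its exons overlap exons of Tsc2 on the other strand, and reads were counted by strand, per the file headers. Pkd2, which encodes the cation channel polycystin-2, was at 42.7, 38.5, 38.9 and 44.3 CPM in KO replicates 1 to 4, against 35.1, 32.2, 32.6 and 31.9 CPM in WT replicates 1 to 4. Every KO library of Pkd2 lay above every WT library, by a small margin, since the lowest KO value was 1.10 times the highest WT value. Its fold was 1.25 with a 95% interval from 1.09 to 1.42.

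**Figure D1:**
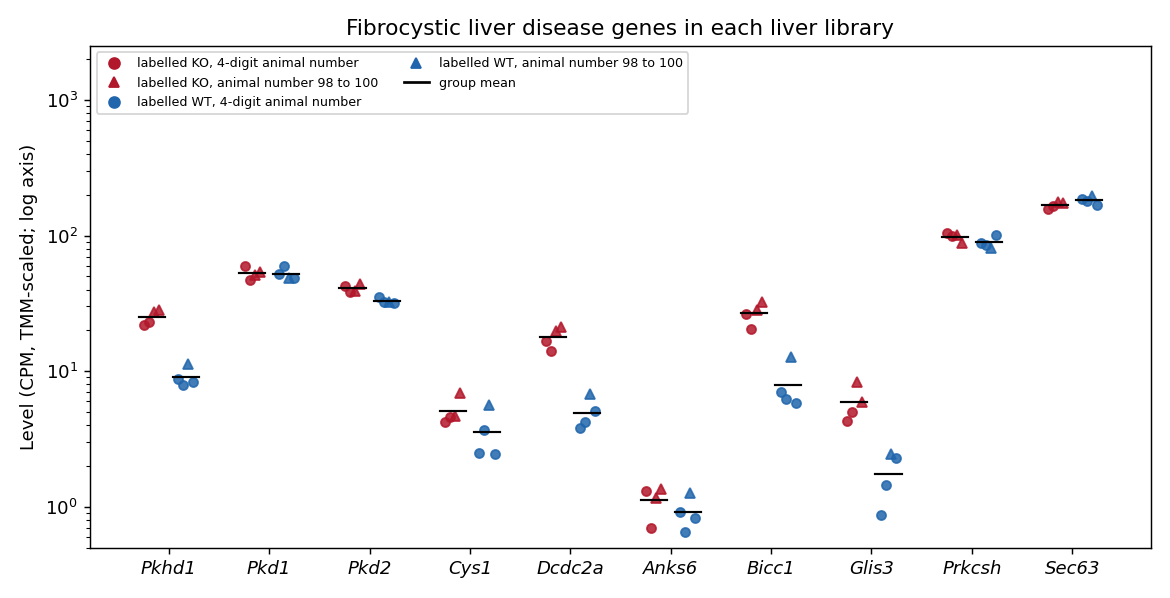
Level of each gene in every library in TMM-scaled CPM on a log axis, with KO left of WT, triangles for animals numbered 98 to 100, circles for 4-digit numbers and lines for group means. Pkhd1, Dcdc2a, Bicc1, Glis3 and Pkd2 have every KO library above every WT library, and the blue triangle is WT replicate 3.

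Of the genes of ciliary proteins, Dcdc2a had the highest fold of the 10 genes. Its product is a doublecortin-domain protein that binds microtubules, and mutations of human DCDC2 cause neonatal sclerosing cholangitis. Dcdc2a was at 16.7, 14.1, 19.7 and 21.2 CPM in KO replicates 1 to 4, against 3.83, 4.19, 6.74 and 5.05 CPM in WT replicates 1 to 4. The lowest KO value was 2.09 times the highest WT value, and the fold was 3.61 with a 95% interval from 2.73 to 4.78. The gene lies at chr13:25056004-25210706 on the plus strand.

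Cys1 encodes cystin, a cilium-associated protein whose loss causes cysts in the cpk mouse. It was at 4.22, 4.61, 4.66 and 6.88 CPM in KO replicates 1 to 4, against 2.48, 3.70, 5.65 and 2.44 CPM in WT replicates 1 to 4. WT replicate 3 exceeded 3 of the KO libraries, and KO replicate 4 lay above all others. The fold was 1.41 with a 95% interval from 0.945 to 2.12. Anks6 encodes an ankyrin-repeat protein of the inversin compartment at the base of the cilium. It was at 1.32, 0.693, 1.17 and 1.35 CPM in KO replicates 1 to 4, against 0.911, 0.658, 1.26 and 0.832 CPM in WT replicates 1 to 4. Its groups overlapped, its counts were 15 to 38 per library, and its fold of 1.23 had a 95% interval from 0.715 to 2.1. Counting error alone gives Anks6 a coefficient of variation of 22.1% in WT libraries, of an observed 27.5%, so the depth limits what can be seen of this gene.

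Bicc1 and Glis3 encode regulators of other genes. Bicc1 is an RNA-binding protein with KH and SAM domains that forms complexes with Anks3 and Anks6, and its loss causes polycystic disease in the jcpk and bpk mice. It was at 26.4, 20.4, 28.2 and 32.2 CPM in KO replicates 1 to 4, against 7.07, 6.29, 12.7 and 5.82 CPM in WT replicates 1 to 4. The groups did not overlap, although WT replicate 3 lay nearer to the KO libraries than the other WT libraries did, and the lowest KO value was 1.60 times the highest WT value. The fold was 3.33 with a 95% interval from 2.28 to 4.86. Bicc1 lies at chr10:70922832-71159700 on the minus strand.

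Glis3 is a zinc finger transcription factor whose human mutations cause neonatal diabetes with thyroid disease, kidney cysts and liver fibrosis. It was at 4.30, 4.99, 8.35 and 5.90 CPM in KO replicates 1 to 4, against 0.875, 1.44, 2.45 and 2.27 CPM in WT replicates 1 to 4. The lowest KO value was 1.76 times the highest WT value. The fold was 3.36 with the widest 95% interval of the 4 called genes, from 2.12 to 5.33, and its counts were as low as 24 in a WT library. Glis3 lies at chr19:28258851-28680077 on the minus strand.

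The endoplasmic reticulum genes of isolated polycystic liver disease were the most highly expressed and differed little between the groups. Prkcsh, which encodes the beta subunit of glucosidase II, was at 105, 99.4, 100.7 and 87.7 CPM in KO replicates 1 to 4, against 88.3, 85.5, 81.6 and 100.3 CPM in WT replicates 1 to 4. Sec63, which encodes a partner of the protein-conducting channel, was at 156, 165, 177 and 172 CPM in KO replicates 1 to 4, against 188, 179, 197 and 168 CPM in WT replicates 1 to 4. Both genes overlapped between the groups. The fold was 1.11 for Prkcsh (95% interval 0.961 to 1.27) and 0.914 for Sec63 (0.799 to 1.05), the only one of the 10 genes with a mean lower in KO.

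By the edgeR test across all genes at an adjusted p under 0.05, 4 of the 10 genes were called higher in KO, Pkhd1, Dcdc2a, Bicc1 and Glis3, 0 were called lower and 6 were not called. Over all tested genes 2.32% were called higher and 1.37% lower. DESeq2 and edgeR with upper quartile scaling, which called 4.19% and 2.69% of all tested genes higher, added Pkd2. Because the genes were selected on this contrast, nothing is read from these counts. Without overlap between the groups, 5 of the 10 genes were higher in KO and 0 lower, where 6.19% and 5.01% of all tested genes were. The median log2 fold change of the 10 genes was 0.41, that of all tested genes was −0.0046, and 9 of the 10 had a value above 0. Over the 17 alternatives run, among them the omission of any single library, the log2 fold changes ranged from 1.39 to 1.60 for Pkhd1, 1.74 to 2.05 for Dcdc2a, 1.62 to 2.06 for Bicc1 and 1.51 to 1.98 for Glis3.

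The levels within WT livers are part of the contrast that chose the genes, so their order is given as a description. Per kilobase of exon, the genes of WT livers spanned from 44.2 ± 4.02 CPM per kb for Prkcsh to 0.175 ± 0.048 CPM per kb for Anks6 (SD, n = 4). Prkcsh stood above 93.1% and Anks6 above 5.5% of all tested genes on that scale. Sec63 followed Prkcsh at 20.8 ± 1.39 CPM per kb, and the polycystin genes came next, at 3.69 ± 0.376 CPM per kb for Pkd1 and 3.24 ± 0.141 CPM per kb for Pkd2. Cys1, Bicc1, Pkhd1, Dcdc2a and Glis3 lay at 1.35, 1.07, 0.633, 0.598 and 0.199 CPM per kb. Ranges over the WT libraries overlapped between Pkd1 and Pkd2, between neighbours in the run from Cys1 to Dcdc2a, and between Glis3 and Anks6, so those neighbours were not separated by their spread. In KO livers the levels were 4.04 CPM per kb for Pkd2, 3.73 for Pkd1, 3.60 for Bicc1, 2.17 for Dcdc2a, 1.92 for Cys1 and 1.76 CPM per kb for Pkhd1. These levels are also part of the contrast that chose the genes, so nothing is read from how the order differs from that in WT livers.

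**Figure D2:**
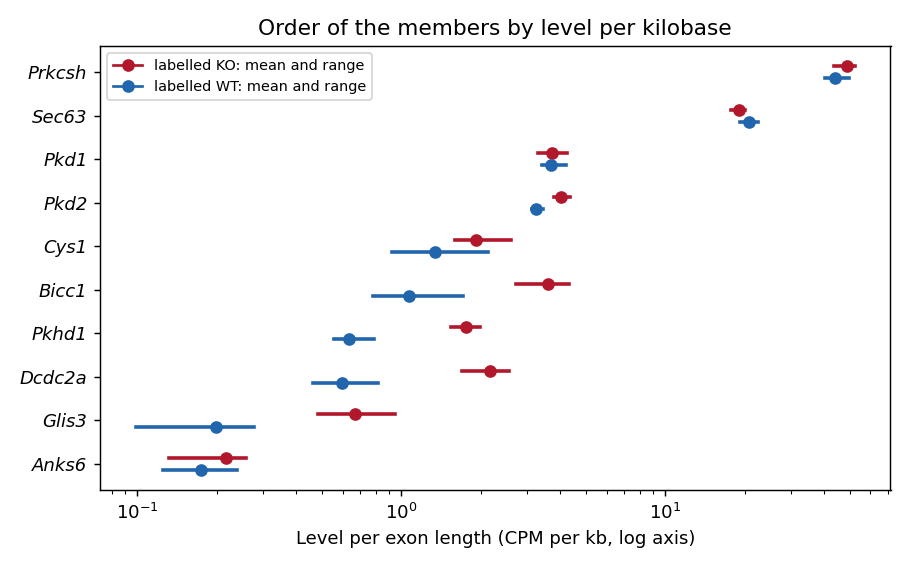
Mean (point) and range over 4 libraries (line) of each gene's level in CPM per kilobase of exon on a log axis, with KO above WT, ordered by the WT mean. Bicc1 lies at 3.60 CPM per kb in KO and 1.07 CPM per kb in WT, while Prkcsh, Sec63 and Pkd1 keep overlapping ranges.

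The spread within a genotype also varied between the genes. In WT livers the coefficient of variation was 4.33% for Pkd2, 6.67% for Sec63, 9.1% for Prkcsh, 10.2% for Pkd1 and 16.7% for Pkhd1. It was higher for Dcdc2a at 26.2%, Bicc1 at 40.2%, Glis3 at 41.8% and Cys1 at 42.2%. Counting error accounts for 7.72% in Bicc1 and 11.7% in Cys1. Of the 10 genes, 7 had their highest WT value in WT replicate 3, and 8 had their highest KO value in KO replicate 3 or 4, which are the animals numbered 98 to 100. The shares of all tested genes with these extremes were not counted, so nothing particular to the 10 genes is read from them.

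The number series was compared with genotype as a covariate, a contrast that did not select the genes. Of the 10 genes, 1 was called, Bicc1, which was higher in animals numbered 98 to 100 than in 4-digit animals (log2 difference 0.62, SE 0.14, edgeR adjusted p = 0.0324), beside 2.41% of all tested genes called in either direction. Bicc1 was higher in the 98 to 100 series in both genotypes, at 28.2 and 32.2 CPM against 26.4 and 20.4 CPM in KO livers and at 12.7 CPM against 5.82 to 7.07 CPM in WT livers. The call was lost without KO replicate 2 or 4 or WT replicate 1, 2 or 3, which left 0 of the 10 genes called. Glis3, Cys1, Dcdc2a and Pkhd1 had log2 differences of 0.65, 0.64, 0.50 and 0.36 and did not pass (edgeR adjusted p = 0.217, 0.153, 0.0739 and 0.0986). Bile duct markers had a median series difference of 0.56 over 10 tested genes, 1 of which was called, and the part of that in the Bicc1 difference was not tested.

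Within each series the 4 called genes were higher in KO, which largely restates their choice, made on the same libraries. The log2 difference of KO from WT was 1.44 in 4-digit animals and 1.31 in animals numbered 98 to 100 for Pkhd1, 1.83 and 1.59 for Dcdc2a, 1.87 and 1.24 for Bicc1, and 1.63 and 1.49 for Glis3. For each gene, the first value is the edgeR log2 fold change of a refit to the 4-digit animals alone. The second is a plain difference of mean log2 CPM with a prior count of 2, and it rests on a single WT library. These are unlike measures, so their sizes cannot be compared directly. Cys1 and Anks6 were at 0.62 and 0.32 among 4-digit animals and at 0.00 and 0.00 in the other series. Whether the series differ in these values was not tested.

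Genes of bile duct cells moved with the 4 called genes. Of the 13 bile duct markers listed, 10 were expressed enough to test, 9 rose, 0 fell and 1 did not pass. Over all tested genes 3.69% were called in either direction. The median log2 fold change of the 10 was 1.99, beside −0.0046 over all tested genes. Krt7, a keratin of bile duct lining, was at 3.04 ± 0.911 CPM in KO livers and 0.627 ± 0.154 CPM in WT livers, and the adhesion molecule Epcam was at 8.01 ± 1.54 and 1.91 ± 0.79 CPM (n = 4 each, with SD; edgeR, adjusted p = 0.00194 and 0.000902). Spp1, which encodes osteopontin, rose 3.84-fold and Cd24a 3.21-fold. Cftr, also among those that rose, was at 0.223 CPM in WT livers and passed the low-count filter only through the KO libraries. The summed level of the list was 194 to 296 CPM in KO libraries and 69.9 to 93.9 CPM in WT libraries. The other 3 markers were too low to test, among them the secretin receptor gene Sctr, at 0.651 CPM in KO livers and 0.129 CPM in WT livers, and their part in the differences of the 4 genes was not tested.

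Set against the mean log2 level of the 10 tested markers in the same library, 3 of the 4 called genes had group means within 0.10 of each other. Glis3 was at −0.60 ± 0.19 in KO and −0.60 ± 0.67 in WT livers, Bicc1 at 1.60 ± 0.20 and 1.57 ± 0.30, and Dcdc2a at 1.03 ± 0.14 and 0.93 ± 0.30 on this log2 scale (SD, n = 4 each). Pkhd1 was at 1.53 ± 0.16 in KO and 1.81 ± 0.08 in WT livers, a difference of −0.28 with ranges that met at their edges. The other genes were lower relative to the markers in KO, with differences of −1.19 for Cys1, −1.44 for Pkd2, −1.48 for Anks6, −1.61 for Prkcsh, −1.74 for Pkd1 and −1.89 for Sec63. The marker mean itself was 2.83 to 3.46 in KO libraries and 1.17 to 1.66 in WT libraries. Each difference is the gene's own difference less that of the markers, so a gene of like CPM in both groups comes out negative. The near-equal means of Glis3, Bicc1 and Dcdc2a partly restate the contrast that chose these genes. The part of bile duct cell number in any of these differences was not tested.

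**Figure D3:**
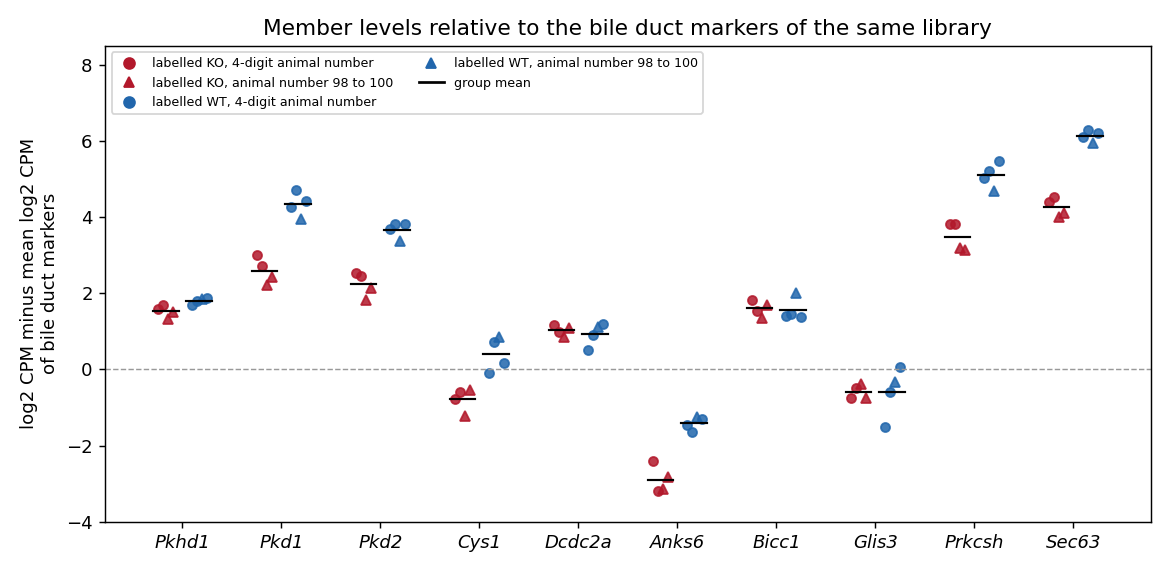
Log2 CPM of each gene minus the mean log2 CPM of 10 bile duct markers in the same library, with KO left of WT, triangles for animals numbered 98 to 100 and lines for group means. Glis3, Bicc1 and Dcdc2a have group means within 0.10 of each other, whereas Pkd1, Pkd2, Prkcsh and Sec63 lie lower in KO, with differences of −1.44 to −1.89. The marker mean is itself higher in KO, so a gene of like CPM in both groups lies lower in KO here.

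Other genes of cystic and ciliary disease were taken as a list of 58 genes, 49 of which were tested. Of these 2 rose, 0 fell and 47 did not pass, a share of 4.08% beside 3.69% of all tested genes, and their log2 fold changes had a median of 0.06. Both genes that rose belong to the nephronophthisis list, where 16 of 17 were tested. Glis2, a zinc finger relative of Glis3 mutated in nephronophthisis, was at 5.25 ± 0.95 CPM in KO livers and 2.85 ± 0.333 CPM in WT livers, and Wdr19, an intraflagellar transport protein, at 5.60 ± 0.995 and 2.49 ± 0.802 CPM (n = 4 each, with SD; edgeR, adjusted p = 0.0277 and 0.0216). Neither was called without KO replicate 4 or without WT replicate 2, and 1 of them without KO replicate 1, 2 or 3 or WT replicate 1 or 4. Of the partners of Anks6 and Bicc1, Anks3 had a log2 fold change of −0.03, Invs of 0.23 and Nek8 of −0.16, and none was called.

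Of 17 tested ciliopathy genes with hepatic fibrosis 0 were called in the reported edgeR test, where 3.69% of all tested genes were called in either direction. Tctn2, of the transition zone of the cilium, and Dzip1l, which is mutated in a recessive polycystic kidney disease, had log2 fold changes of 1.19 and 1.17 (edgeR adjusted p = 0.0746 and 0.0639). Both were called higher by DESeq2 and by edgeR with no low-count filter. Dzip1l alone was called by limma-voom, and by edgeR with the replicate block or without WT replicate 4. Tctn2 alone was called by edgeR without WT replicate 3. Of 16 genes of the translocon and glycan processing, the partners of Sec63 and Prkcsh, 0 were called, with a median of −0.0044. In that list Ganab, the catalytic subunit that pairs with the Prkcsh product, had a log2 fold change of 0.20 and Pmm2, which makes mannose 1-phosphate, of −0.27. At an unadjusted p under 0.05, 2 of the 17 ciliopathy and 3 of the 16 endoplasmic reticulum genes were counted. The share of all tested genes at that threshold was not counted, so nothing is read from these 2 counts. DESeq2 called 0 of the 16, and edgeR called Mogs, a glucosidase, higher without WT replicate 3 and Pmm2 lower with the number series as a covariate. The 7 relatives of the polycystins and fibrocystin, such as Pkhd1l1 and Pkd2l2, were too low to test, with a summed level of 0.466 to 1.04 CPM in KO libraries and 0.222 to 1.06 CPM in WT libraries.

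**Figure D4:**
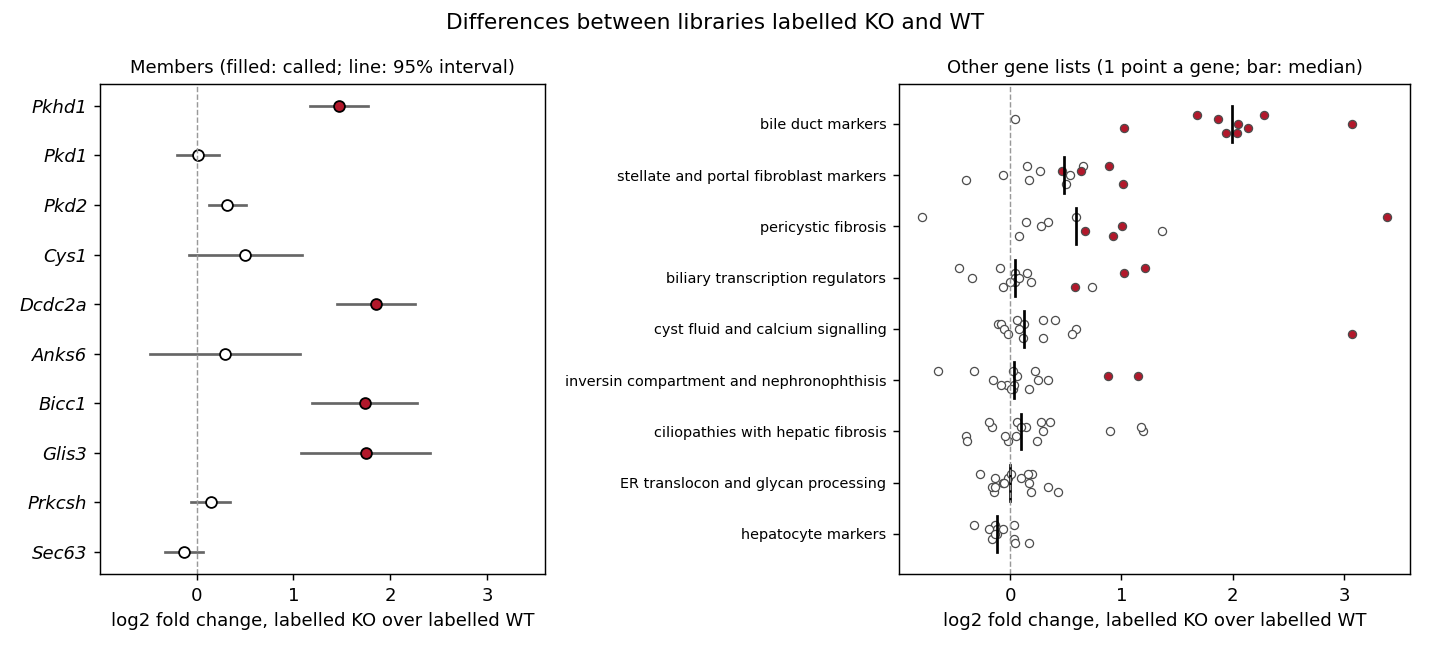
Log2 fold changes of libraries labelled KO over WT, for the 10 genes with 95% intervals on the left and for single genes of the other lists on the right, where bars mark list medians. Filled points were called by edgeR, and the bile duct markers have a median of 1.99 while the translocon and ciliopathy lists lie around 0.

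Genes that act upstream or downstream of cyst formation were looked at in the same way. Of 15 tested transcription regulators of bile duct cells or hepatocytes, 3 rose and 0 fell in the reported edgeR test, with a list median of 0.04. Over all tested genes 3.69% were called in either direction, the share to set beside this count and the later list counts here. The list is not particular to bile ducts, since it holds Hnf4a, which is also on the hepatocyte list. Those that rose were Sox4 at 2.32-fold, Sox9 at 2.03-fold and Foxa3 at 1.5-fold (edgeR adjusted p = 0.00157, 0.0324 and 0.048). Of them, Sox9 is also a bile duct marker. Without KO replicate 3 or 4 or WT replicate 1 or 2, only Sox4 of the 3 that rose was called. Foxa3 was also not called without KO replicate 1 or 2 or WT replicate 4, nor with a stricter low-count filter. Sox9 was also not called with the number series as a covariate or in 4-digit animals alone, where its log2 fold change was 0.63. Prox1, a regulator of early liver growth, was at 258 ± 34.7 CPM in KO livers and 354 ± 78.7 CPM in WT livers (SD, n = 4 each), and it was called lower by DESeq2, and by edgeR with no low-count filter or without WT replicate 3. Of 14 tested genes of cyst fluid and calcium signalling 1 rose, Cftr, the chloride channel of cholangiocytes, at 2.0 ± 0.673 CPM in KO livers and 0.223 ± 0.121 CPM in WT livers (edgeR adjusted p = 0.00204), and it is also on the bile duct list. Of 11 tested genes of fibrosis around cysts 4 rose and 0 fell, with a median of 0.59. Itgb6, an integrin subunit of injured bile duct lining, was at 1.29 ± 0.423 CPM in KO livers and 0.116 ± 0.119 CPM in WT livers, and the collagen genes Col1a1, Col1a2 and Col3a1 rose 2.0-fold, 1.59-fold and 1.90-fold (edgeR adjusted p = 0.00587, 0.0103, 0.0077 and 0.0313). Itgb6 and Cftr were near the floor in WT livers and passed the low-count filter only through the KO libraries. Their calls, and their places in these counts, are therefore a description only. Col3a1 was not called without KO replicate 1, 3 or 4 or WT replicate 1, 2 or 4, nor with no low-count filter. In 4-digit animals alone Col1a1 and Col1a2 were not called, at log2 fold changes of 0.74 and 0.54. The chemokine gene Cxcl10 had a log2 fold change of −0.79 and was called lower in 4-digit animals alone and without WT replicate 3. DESeq2 called 5 genes of this list higher and 0 lower, and 4.19% of all tested genes higher.

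Markers of other liver cells moved less. Of 12 stellate cell and portal fibroblast markers 4 rose, Cygb, Gas6, Eln and Hgf, where 3.69% of all tested genes were called in either direction. The list had a median of 0.48 and a summed level of 472 to 542 CPM in KO libraries and 421 to 451 CPM in WT libraries. Of these, 2 were called without KO replicate 1, 3 or 4 or WT replicate 1, and 1 without WT replicate 2, while DESeq2 called 7. None of the 12 hepatocyte, 10 endothelial or 10 macrophage markers was called by edgeR, at medians of −0.12, 0.05 and 0.08, and 1, 3 and 1 of them had an unadjusted p under 0.05. The share of all tested genes at that unadjusted threshold was not counted, so nothing is read from those 3 counts. DESeq2 called 0 in each of these lists, and edgeR called 1 hepatocyte marker lower without WT replicate 3. In those lists Cyp2e1 had a log2 fold change of −0.32, Pecam1 and Eng of 0.23 and 0.20, and Cx3cr1 and Timd4 of 1.25 and −0.37.

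The genes with profiles most like each member over the 8 libraries were found by the root-mean-square difference of mean-centred log2 CPM among 11739 genes. For Pkhd1 they were Ddit4l, Ephb6 and Syt7, at 0.134, 0.159 and 0.174, where the median gene lay at 0.783. For Bicc1 they were Scara3, Egflam and Anxa13 at 0.175, 0.201 and 0.208, and for Dcdc2a the laminin chain gene Lamc3, Scara3 and Selenbp2 at 0.161, 0.192 and 0.192. For Glis3 the nearest were the anion exchanger gene Slc4a9, Selenbp2 and the kinase gene Wnk2, at 0.272, 0.293 and 0.333. Pkd1 had Gigyf1, Taf15 and Ptbp1 nearest, at 0.0515, 0.061 and 0.0624, where the median gene lay at 0.243. These profiles include the difference between genotypes and describe likeness in these libraries only.

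HuR binds AU-rich and U-rich stretches of messenger RNA, mostly in the untranslated region after the stop codon, so these letters were counted in that region of 1 coding transcript per gene (GENCODE M21). The pentamer ATTTA, read on the sense strand, occurred in 65.9% of 12747 tested genes, with a median of 1.21 per kilobase. It occurred 9 times in 2413 bases of Bicc1, 8 times in 4128 bases of Glis3, 7 times in 5188 bases of Dcdc2a and 0 times in 519 bases of Pkhd1. Among the genes that were not called it occurred 11 times in Sec63, 10 times in Pkd2 and 2 times in Pkd1, and 0 times in Cys1, Anks6 and Prkcsh. The heptamer TTTATTT, which can overlap the pentamer, occurred in 38.2% of genes and 5 times in Bicc1, 2 times each in Glis3 and Sec63, 1 time each in Dcdc2a and Pkd2, and 0 times in the other 5. Genes with and without these letters were thus found both among the 4 called genes and among the 6 others.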

How the data were processed

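Each library's values are whole-number gene counts, deposited by the authors in 1 table with a column per mouse. Per the file headers, reads were counted with featureCounts per gene of Ensembl release 81 on mm10, with strand setting 2 and a minimum mapping quality of 1. Per the submitters' processing notes, bcl2fastq 2.19.1, GSNAP and featureCounts 1.5.1 were used. Gene symbols matched 45143 of 45706 IDs, and 92 spike-in rows held 0 counts and were left out.

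Counts were filtered with filterByExpr (minimum count 10), scaled by TMM and tested with the quasi-likelihood test of edgeR 4.0.16 in R 4.3.3, with Benjamini-Hochberg adjustment over 14645 genes and a threshold of 0.05. Intervals of folds are 95%. The log2 CPM values used a prior count of 2. DESeq2 1.42.0, limma-voom (limma 3.58.1), other scalings and filters, the animal number series, the replicate numbers as a block and leaving out each library were alternatives. Of each list up to 4 called genes were named in order of p, or the 2 with the smallest p where none was called. Anks3, Invs, Nek8, Sctr, Mogs, Prox1 and Cxcl10 were named outside that rule, after their values were seen, and some genes that the rule names are not reported here. The 10 genes, the lists and the motifs were chosen with earlier results of these data known. The script was tested on simulated data. Total counts of 18649618 to 31249286 per library set the counting error, and no libraries were duplicates (smallest chi-square per degree of freedom of any pair 16.985). Motifs were searched in RefSeq promoter windows (GRCm38.p6) and GENCODE M21 transcripts.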

Additional observations from a re-analysis of the deposited data

Results flagged for a closer look

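Cys1 in KO livers had 1 library far from the others. KO replicate 4 was at 6.88 CPM, against 4.22, 4.61 and 4.66 CPM in KO replicates 1 to 3, and the gap was 0.834 of the range of the group, above Dixon's 95% critical value for 4 samples. The 10 genes gave 20 groups, and chance gives about 1 such library in 20 groups.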

How the results depend on the processing

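Of the 10 genes, 4 were called higher and 0 lower under each of the 17 alternatives, except that upper quartile scaling and DESeq2 called 5 higher, with Pkd2 added. Among the other cystic disease genes, 2 in the reported test, 4 were called with no low-count filter or with DESeq2 and 1 in 4-digit animals alone, and between 0 (without KO replicate 4 or WT replicate 2) and 4 (without WT replicate 3) when 1 library was left out. Bile duct markers called numbered 6 to 9 when 1 library was left out. Between the animal number series, 2 of the 10 genes were called with no filter or DESeq2, and 0 to 1 when 1 library was left out. The log2 fold change of Pkd1 changed sign to −0.0034 in 4-digit animals and ranged from −0.049 to 0.087 when 1 library was left out, at −0.049 with KO replicate 1 omitted, −0.017 with WT replicate 3 omitted and −0.018 with WT replicate 4 omitted. The cause of these changes was not tested.

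No pairing of the libraries by replicate number was seen. The correlations of same-numbered deviations were 0.025, 0.025, 0.122 and −0.147, and only the KO library of number 3 lay nearest its own number. The KO library of number 4 also lay nearest WT replicate 3. With 4 libraries per group, these values cannot show that there was no pairing. With the replicate block, 4 of the 10 genes were called higher and 353 genes higher and 211 lower over all genes, against 340 and 201. Over all genes DESeq2 called 613 higher and 495 lower, edgeR called 499 and 328 with no filter, and leaving out 1 library gave 151 (without WT replicate 2) to 710 (without WT replicate 3) higher and 71 to 534 lower. Low counts limit Anks6, Cys1 and Glis3 most.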
